A study of Mus musculus with 13 samples.

Results

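The Hedgehog pathway genes Gli1, Gli2, Gli3, Ptch1, Smo, Sufu, Hhip, Boc and Cdon were followed in mouse retinal cells made to express Ikzf1. They were chosen by name as core components of the pathway, with earlier results of these data known. All 9 were found among the 35734 genes of the authors' deposited table, and all 9 were among the 15578 genes with enough reads to be tested. The cells came from CD1 retinas of postnatal day 0 that were dissociated, transfected, cultured for 9 h and sorted for green fluorescent protein (GFP). Control cells carried GFP alone, and Ikzf1 cells carried an Ikzf1-IRES-GFP construct, in which 1 transcript encodes both Ikzf1 and GFP. Each group held 4 biological replicates, of 400000 sorted cells per control replicate and 300000 per Ikzf1 replicate. Every cell in both groups had thus been dissociated, transfected and kept in culture, and no untransfected retina was measured by RNA-seq. Ikzf1 (Ikaros) is a zinc finger transcription factor of early retinal progenitors, and the series asked what it does when it is placed in late progenitors.

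In the Hedgehog pathway a secreted ligand binds the receptor Ptch1 and relieves its inhibition of the membrane protein Smo. Active Smo, acting at the primary cilium, frees the Gli transcription factors from Sufu: Gli2 acts mainly as an activator, Gli3 mainly as a repressor, and Gli1 is an activator that is itself a target gene. Boc and Cdon are co-receptors that help the ligand bind, while Hhip is a decoy receptor that takes it up, and Ptch1 and Hhip are also target genes in many tissues. In the retina, Sonic hedgehog from ganglion cells is known to act on progenitors and to sustain their division.

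Promoter sequence bears on these genes because Ptch1 and Hhip are known Gli targets and because Ikzf1 was the factor supplied. RefSeq windows of 300 bases on GRCm38.p6, from 250 before to 50 after a gene's start, were matched for 7 of the 9 genes, all but Gli1 and Boc. The windows of Gli2, which fell, and Ptch1, which rose, are shown as called genes of larger change that went opposite ways, and that of Cdon because it held the single motif match. They run 5′ to 3′ on the gene's own strand, at chr1:119053570-119053869 (minus strand), chr13:63565686-63565985 (minus strand) and chr9:35451826-35452125 (plus strand). Capitals mark the match to the Ikaros core letters.
Gli2: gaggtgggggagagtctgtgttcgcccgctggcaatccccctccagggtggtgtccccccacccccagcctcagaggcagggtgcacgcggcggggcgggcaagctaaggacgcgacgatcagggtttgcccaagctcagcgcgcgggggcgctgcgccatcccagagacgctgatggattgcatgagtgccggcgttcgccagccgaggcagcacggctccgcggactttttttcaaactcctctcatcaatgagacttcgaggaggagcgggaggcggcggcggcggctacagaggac
Ptch1: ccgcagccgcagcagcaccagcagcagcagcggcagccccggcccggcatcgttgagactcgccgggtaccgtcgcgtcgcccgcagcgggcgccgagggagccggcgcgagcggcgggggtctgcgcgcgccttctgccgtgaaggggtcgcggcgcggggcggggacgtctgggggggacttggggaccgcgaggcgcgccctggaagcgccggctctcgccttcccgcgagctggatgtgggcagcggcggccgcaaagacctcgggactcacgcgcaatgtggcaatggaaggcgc
Cdon: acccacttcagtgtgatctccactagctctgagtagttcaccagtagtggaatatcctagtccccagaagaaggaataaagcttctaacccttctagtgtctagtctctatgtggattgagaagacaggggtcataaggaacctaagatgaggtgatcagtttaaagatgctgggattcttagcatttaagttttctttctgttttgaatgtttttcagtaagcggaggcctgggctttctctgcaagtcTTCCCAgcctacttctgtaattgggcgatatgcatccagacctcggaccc
The Gli letters GACCACCCA, searched on both strands (TGGGTGGTC), were in 0 of the 7 windows and in 0.253% of the 32851 windows in the table. The Ikaros core letters TGGGAA, also searched on both strands, were in the Cdon window alone, where their reverse complement begins at base 1 of the transcript, against 25.6% of all windows. A match to one of these motifs cannot hold the whole of the other. The Cdon and Ptch1 windows lie at starts inside the gene's annotated span, so they are not the outermost start of either gene. A match of this kind describes letters only, and the lack of one says only that those letters are not in this window.

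Read pairs assigned to transcripts numbered 21405714 to 27132514 in the control libraries and 24478101 to 30510321 in the Ikzf1 libraries. Ikzf1 itself was at 67.2 to 85.1 CPM in the controls and at 171828 to 188534 CPM in the Ikzf1 libraries, where it took 15.9 to 17.2% of all reads. CPM are a gene's counts per 1000000 of the library, here scaled between libraries by trimmed means (TMM), which sets that share aside. In the fit across all genes (edgeR's quasi-likelihood test, Benjamini-Hochberg adjusted p under 0.05, the rule for every call below), 59.1% of the genes tested were called. Of all genes tested, 29.3% were higher with Ikzf1 and 29.8% lower, 4563 against 4643 genes. On TPM, the same kind of share per transcript length, which keeps the Ikzf1 share in the total, limma called 1860 higher and 6983 lower and the median of all genes moved to -0.19 on the log2(TPM + 1) scale. With Ikzf1 taken out of the TPM total, an alternative chosen after seeing the data, the split was 4651 against 3362 and that median was 0.05.

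Of the 9 pathway genes, 6 were called, 2 higher and 4 lower, or 66.7% against the 59.1% of all genes. The median log2 fold change of the 9 was -0.05, beside 0.00 over all genes tested. The number called and the median were thus near those of the whole table. What varied was the size of the falls: Boc, Gli1 and Gli2 were each called and lower by 1 or more on the log2 scale, 33.3% of the 9 genes against 6.4% of all genes tested. No member was higher by that much, as 4.97% of all genes were. CPM of the control and Ikzf1 libraries did not overlap for 6 of the 9 genes, against 53.1% of all genes.

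**Figure D1:**
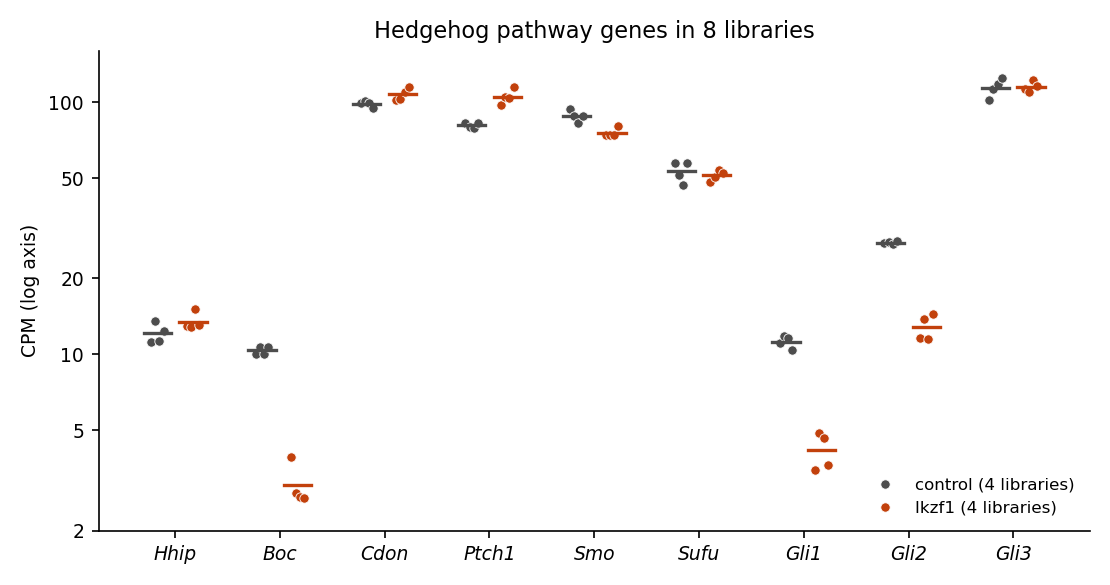
CPM on a log axis of each pathway gene in the 4 control libraries (grey) and the 4 Ikzf1 libraries (orange). Points are libraries and bars are group means. Boc, Gli1 and Gli2 stand well below their controls in every Ikzf1 library, and Ptch1 stands above its own. The remaining genes lie within about the range of their controls or close beside it.

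Boc (chr16:44485049-44558897 on GRCm38), an immunoglobulin-family co-receptor for the ligand, fell the most of the 9. The control libraries held 10.04, 10.7, 10.1 and 10.7 CPM and the Ikzf1 libraries 3.92, 2.82, 2.73 and 2.70 CPM. Every Ikzf1 library was below every control, and the first Ikzf1 replicate was the highest of its group. Means were 10.4 ± 0.376 and 3.04 ± 0.587 CPM (SD, n = 4), a log2 fold change of -1.77 (SE 0.13, edgeR adjusted p = 2.42e-12), or 3.42-fold lower. Only 1.41% of the genes tested had a fold change as low or lower. These values rest on 245 to 306 read pairs in the controls and 64 to 92 in the Ikzf1 libraries, all assigned to 1 transcript, ENSMUST00000114634.2.

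Cdon (chr9:35421128-35507652), the co-receptor closest to Boc in sequence and role, did not fall with it. Its control libraries held 99.1, 101.1, 98.97 and 95.1 CPM and its Ikzf1 libraries 102.1, 102.9, 109.4 and 115.3 CPM. The groups only just failed to overlap. Means were 98.6 ± 2.50 and 107.4 ± 6.18 CPM (SD, n = 4), a log2 fold change of 0.12 (SE 0.05, edgeR adjusted p = 0.0224) that became -0.07 on the log2(TPM + 1) scale, where the median of all genes was -0.19. The call was also lost without the fourth control (0.11, edgeR adjusted p = 0.0791) and without the fourth Ikzf1 library (0.10, edgeR adjusted p = 0.0780).

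Ptch1 (chr13:63508328-63573598), the receptor that holds Smo inactive, rose. It was at 82.8, 79.6, 78.7 and 82.4 CPM in the controls and at 97.7, 104.8, 104.2 and 114.8 CPM with Ikzf1. All 4 Ikzf1 libraries were above all 4 controls. The means of 80.9 ± 2.02 and 105.3 ± 7.06 CPM (SD, n = 4) gave a log2 fold change of 0.38 (SE 0.05, edgeR adjusted p = 1.06e-07), or 1.30-fold higher. On the log2(TPM + 1) scale the rise was 0.15 and was not called (limma adjusted p = 0.0867). The median over all genes was -0.19 on that scale. With TPM rescaled without Ikzf1 the rise was 0.42 and called (limma adjusted p = 0.000417).

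Hhip (chr8:79965851-80058006), the decoy receptor, was at 11.2, 13.6, 11.3 and 12.3 CPM in the controls and at 12.9, 12.8, 15.2 and 13.1 CPM with Ikzf1. The groups overlapped, with the third Ikzf1 replicate the highest of all 8. Its log2 fold change of 0.16 (SE 0.09, edgeR adjusted p = 0.143) has a 95% confidence interval from -0.02 to 0.34. With an offset for the average transcript length the value was 0.28 and was called (edgeR adjusted p = 0.0486). The authors' deposited table, whose mean counts were found to hold a term for such lengths, gave 0.28 with an adjusted p of 0.0522.

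Of 4 other receptors and co-receptors tested, 0 rose, 2 fell and 2 were not called, with a median log2 fold change of -0.22. Gas1, a membrane-anchored co-receptor, went from 45.2 ± 5.54 to 34.2 ± 1.31 CPM (SD, n = 4 here and for each mean below, log2 fold change -0.40, SE 0.07, edgeR adjusted p = 3.19e-05). Lrp2, an endocytic receptor that binds Sonic hedgehog, went from 24.4 ± 4.24 to 13.02 ± 1.67 CPM (-0.91, SE 0.12, edgeR adjusted p = 5.94e-06). Boc, Gas1 and Lrp2 were thus called lower while Cdon was not.

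Ligand transcripts were scarce. Sonic hedgehog (Shh) had 0 to 2 read pairs in the control libraries and 0 to 5 in the Ikzf1 libraries, too few to test. Indian hedgehog (Ihh) had 7 to 16 and 8 to 12 read pairs, with means of 0.389 ± 0.122 and 0.392 ± 0.0675 CPM. Desert hedgehog (Dhh) went from 1.26 ± 0.393 to 0.545 ± 0.171 CPM on 25 to 42 and 9 to 18 read pairs (-1.20, SE 0.33, edgeR adjusted p = 0.00281). That call did not hold with the length offset (-0.98, edgeR adjusted p = 0.0860), and the authors' deposited table gave -0.63 with an adjusted p of 0.139.

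Among all 8 ligands and release factors tested, 3 rose, 3 fell and 2 were not called. Disp1, the transporter that lets the lipid-bearing ligand leave the cell, rose from 30.4 ± 2.10 to 51.3 ± 4.21 CPM (0.76, SE 0.06, edgeR adjusted p = 4.87e-11). Scube proteins, which carry the released ligand, moved in both directions. Scube2 rose from 0.895 ± 0.263 to 3.10 ± 0.624 CPM (1.77, SE 0.25, edgeR adjusted p = 5.18e-07), and Scube3 fell from 24.3 ± 1.22 to 12.9 ± 0.744 CPM (-0.92, SE 0.08, edgeR adjusted p = 3.17e-11).

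Smo (chr6:29735503-29761365), the signal transducer that Ptch1 inhibits, fell slightly. The controls were at 94.4, 88.3, 82.6 and 88.2 CPM and the Ikzf1 libraries at 74.3, 74.3, 74.4 and 80.4 CPM. The groups did not overlap, although the highest Ikzf1 library came within a few CPM of the lowest control. Means were 88.4 ± 4.83 and 75.8 ± 3.02 CPM (SD, n = 4), a log2 fold change of -0.22 (SE 0.05, edgeR adjusted p = 0.000325), or 1.16-fold lower. With TPM rescaled without Ikzf1 it was -0.15 and not called (limma adjusted p = 0.0525). A processed pseudogene on the same strand, Gm13717, overlaps Smo, so reads of the pair could be split between them, but its mean normalised count in the authors' deposited table was 6.03.

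Sufu (chr19:46396896-46488804), which binds and restrains Gli proteins, was at 57.2, 51.5, 46.9 and 57.3 CPM in the controls and at 48.3, 50.7, 53.7 and 52.6 CPM with Ikzf1. The groups overlapped fully, all Ikzf1 values lying inside the control range. Its log2 fold change of -0.05 (SE 0.06, edgeR adjusted p = 0.490) has a 95% confidence interval from -0.17 to 0.07, and its sign turned to 0.08 with the length offset and to 0.13 on rescaled TPM.

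Among 26 other genes that act between Smo and Gli, 7 rose, 8 fell and 11 were not called, with a median of -0.02. Prkaca, the catalytic subunit of protein kinase A, which phosphorylates Gli proteins toward their repressor forms, rose from 111.0 ± 3.75 to 189.7 ± 4.86 CPM (0.77, SE 0.04, edgeR adjusted p = 4.57e-15). Kif7, a ciliary kinesin that regulates Gli proteins, rose from 22.6 ± 0.802 to 28.7 ± 0.917 CPM (0.35, SE 0.06, edgeR adjusted p = 4.04e-05). On TPM its rise was 0.11 and not called (limma adjusted p = 0.208). With TPM rescaled without Ikzf1 it was 0.38 and called (limma adjusted p = 0.00157). Gpr161, a ciliary receptor that raises cyclic AMP and restrains the pathway, fell from 36.1 ± 1.88 to 29.2 ± 1.67 CPM (-0.30, SE 0.06, edgeR adjusted p = 0.000136) and was at -0.22 without a call on rescaled TPM (limma adjusted p = 0.0540).
Evc2, part of a complex that passes the signal on from Smo in the cilium, fell from 14.7 ± 1.11 to 7.09 ± 0.692 CPM (-1.05, SE 0.10, edgeR adjusted p = 4.28e-10).

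Transport genes of the primary cilium, on which the pathway depends, were followed as well: 2 of 16 rose, 4 fell and 10 were not called, where 59.1% of all genes tested were called. Ift88, a core part of the anterograde transport complex, rose from 22.2 ± 1.04 to 43.0 ± 2.76 CPM (0.95, SE 0.06, edgeR adjusted p = 3.58e-13). Wdr35, of the retrograde complex, fell from 74.8 ± 3.62 to 58.6 ± 1.73 CPM (-0.35, SE 0.05, edgeR adjusted p = 6.17e-07). Ift27, a small GTPase of the transport complex, was at 11.9 ± 1.17 and 9.53 ± 1.38 CPM (-0.32, SE 0.11, edgeR adjusted p = 0.0112), with overlapping groups and no call without the third Ikzf1 library (-0.26, edgeR adjusted p = 0.0531).

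Gli1 (chr10:127329882-127341974), the activator whose transcript is the usual readout of the pathway, fell to well under its control level. Its controls were at 11.1, 11.8, 11.6 and 10.4 CPM and its Ikzf1 libraries at 3.49, 4.89, 4.65 and 3.66 CPM. The highest Ikzf1 library was below the lowest control by more than the spread of either group. Means were 11.2 ± 0.609 and 4.17 ± 0.700 CPM (SD, n = 4), a log2 fold change of -1.43 (SE 0.12, edgeR adjusted p = 5.24e-11), or 2.69-fold lower, on 269 to 317 and 82 to 116 read pairs. Of the genes tested, 2.86% had a fold change as low or lower. Arhgap9 overlaps Gli1 on the opposite strand, and strand use in counting was not given in the sources used here, but its mean normalised count was 6.39 in the authors' deposited table.

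Gli2 (chr1:118834132-119053619), the main activator, also fell. It was at 27.7, 27.9, 27.4 and 28.2 CPM in the controls, the tightest of the 9 genes relative to its mean, and at 11.6, 13.8, 11.5 and 14.4 CPM with Ikzf1. The Ikzf1 libraries all lay near the lower end, far from any control. Means of 27.8 ± 0.310 and 12.9 ± 1.48 CPM (SD, n = 4) gave a log2 fold change of -1.11 (SE 0.08, edgeR adjusted p = 1.23e-12), or 2.16-fold lower, and 5.39% of the genes tested were as low or lower.

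Gli3 (chr13:15463235-15730026), processed mainly to a repressor, was at 102.2, 112.3, 118.5 and 124.4 CPM in the controls and at 112.9, 109.8, 122.6 and 116.0 CPM with Ikzf1. All Ikzf1 values lay within the control range. Its log2 fold change of 0.01 (SE 0.05, edgeR adjusted p = 0.865) has a 95% confidence interval from -0.09 to 0.11. On the log2(TPM + 1) scale it was -0.23 and called (limma adjusted p = 0.0106), beside a median of -0.19 over all genes on that scale. A pseudogene inside Gli3, Gm48343, had a mean of 0 in the authors' deposited table.

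Under every alternative run (other normalisations and tools, the length offset, TPM, and leaving out each library in turn) Boc, Gli1 and Gli2 stayed lower and called. Their log2 fold changes ranged from -1.92 to -1.22 for Boc, from -1.51 to -0.97 for Gli1 and from -1.44 to -1.02 for Gli2. The smallest falls came with TPM rescaled without Ikzf1. Any log2(TPM + 1) scale, rescaled or not, understates changes of low genes. The authors' deposited table, made with DESeq2, gave -1.69 for Boc, -1.20 for Gli1 and -1.19 for Gli2.

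Of 17 genes that Gli factors are known to regulate in other tissues, 6 rose, 5 fell and 6 were not called, with a median of 0.00. Ccnd1, the D-type cyclin that drives entry into the cell cycle, fell from 429.8 ± 19.6 to 223.5 ± 9.59 CPM (-0.94, SE 0.05, edgeR adjusted p = 2.01e-16). Ccnd2, its relative, fell from 6.66 ± 0.793 to 3.72 ± 0.961 CPM (-0.85, SE 0.16, edgeR adjusted p = 5.27e-05). Mycn, a growth-promoting transcription factor, was at 39.9 ± 2.98 and 38.4 ± 1.78 CPM (-0.06, SE 0.06, edgeR adjusted p = 0.434), and its value was positive with the length offset (0.01) and on rescaled TPM (0.07). Mycn was -0.21 and called lower on the log2(TPM + 1) scale (limma adjusted p = 0.0147), beside the median of -0.19 over all genes on that scale.
Hes1, a repressor of neuronal differentiation that is also a Notch target, fell from 27.7 ± 2.39 to 12.4 ± 0.641 CPM (-1.16, SE 0.08, edgeR adjusted p = 4.52e-13). The largest changes at a mean of 1 TPM or more, besides Hes1, were in Rab34 and Sfrp1. Rab34, a small GTPase needed to form cilia, fell from 23.6 ± 1.70 to 9.46 ± 0.941 CPM (-1.32, SE 0.09, edgeR adjusted p = 2.19e-13), and Sfrp1, a secreted Wnt antagonist, rose from 9.01 ± 1.64 to 24.1 ± 1.05 CPM (1.42, SE 0.10, edgeR adjusted p = 1.32e-12). Known targets thus moved in both directions, as all genes tested did (29.3% higher and 29.8% lower). Some of the 6 that rose had a mean under 1 TPM. Gli1 and Ptch1 also moved opposite ways.

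**Figure D2:**
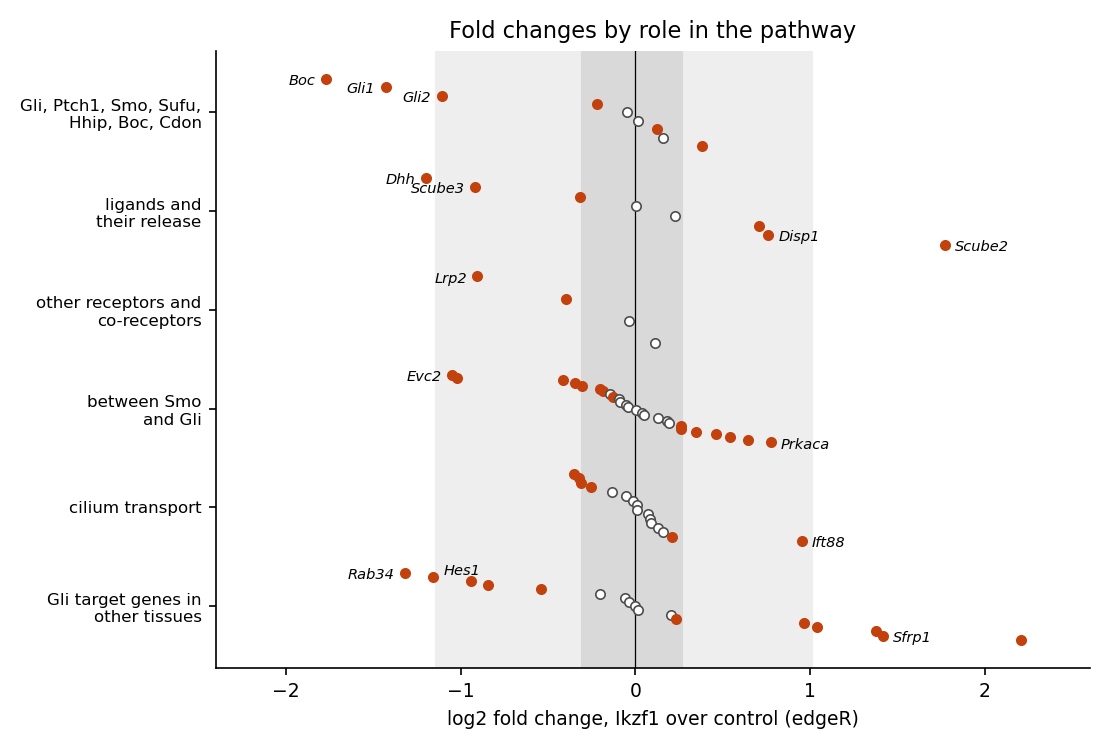
Log2 fold change (Ikzf1 over control, edgeR) of each tested pathway gene by role. Filled points are called at an adjusted p under 0.05, open points are not, the pale band spans the 5th to 95th percentile of all genes tested (-1.14 to 1.01) and the darker band the 25th to 75th (-0.31 to 0.27). Boc and Gli1 lie beyond the pale band and Gli2 just inside it, and called genes stand on both sides of 0 in every role except the other receptors, where both called genes are lower.

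Over all of these lists, 70 of 77 other pathway genes were tested, of which 18 rose, 22 fell and 30 were not called. That is 57.1% called, against 59.1% of all genes, with a median log2 fold change of 0.00. The lists were fixed by knowledge of the pathway with earlier results of these data known. Wider pathway membership thus went with no greater share of calls than the table as a whole.

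Levels of different genes can be set side by side only per transcript length, in TPM. In the controls Smo was highest at 46.3 ± 2.26 TPM (SD, n = 4), followed by Gli3 at 28.1 ± 1.83, Sufu at 26.7 ± 2.51, Cdon at 26.6 ± 0.720 and Ptch1 at 22.6 ± 1.17 TPM. Library ranges overlapped between Gli3 and Sufu and between Sufu and Cdon, so those neighbours did not differ beyond their spread. Below them came Gli2 at 9.84 ± 1.94, Gli1 at 6.32 ± 0.613, Boc at 4.56 ± 0.179 and Hhip at 2.65 ± 0.259 TPM, each apart from the next. Transcripts of the repressor-prone Gli3 thus outnumbered those of the activators in the control cells.
With Ikzf1 these TPM keep the Ikzf1 share in the total, which lowers every other gene, so the order within a group is what compares. In the Ikzf1 libraries Smo was again highest at 34.1 ± 1.68 TPM. Cdon (25.3 ± 2.45), Ptch1 (25.1 ± 1.65), Sufu (24.2 ± 3.06) and Gli3 (23.7 ± 1.15 TPM) followed, each overlapping its neighbour. Gli2 at 3.56 ± 0.626, Hhip at 2.75 ± 0.294 and Gli1 at 2.25 ± 0.464 TPM also overlapped in turn, and Boc was lowest at 1.15 ± 0.218 TPM. Boc and Gli1 had been above Hhip in the controls, Boc was below it with Ikzf1, and Gli1 overlapped it.

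**Figure D3:**
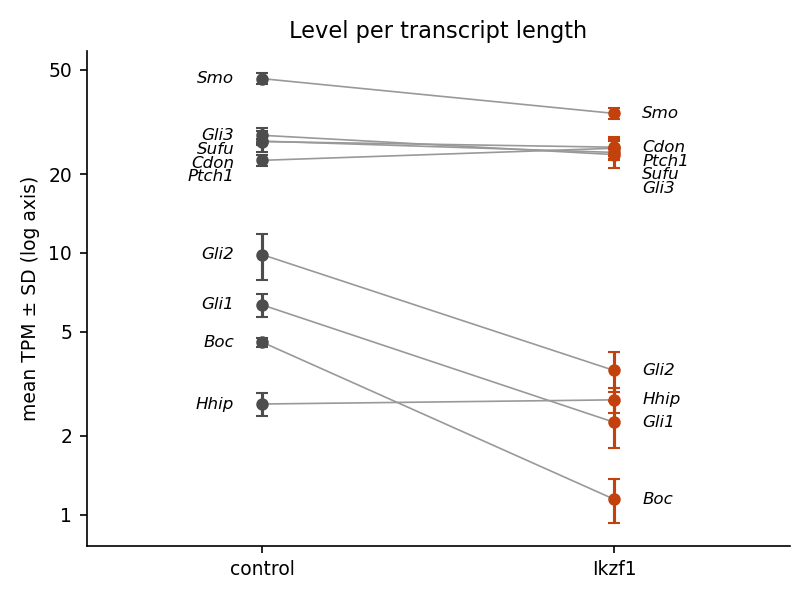
Mean level per transcript length (TPM, log axis, bars are ± SD over 4 libraries) of each pathway gene in control and Ikzf1 cells, with a line joining the same gene. Names are moved apart where means are close. These TPM keep the Ikzf1 share in the total, which lowers every other gene, so slopes are not the fold changes of the fit. Boc goes from 4.56 to 1.15 TPM and passes below Hhip, while Smo stays highest in both groups.

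A ratio of 2 genes within a library does not depend on how libraries are scaled. Of the 5 ratios computed, chosen with earlier results of these data known, 4 differed between the groups with no overlap and an exact two-sided permutation p of 0.0286, the smallest that 4 against 4 libraries allow, or 0.0357 after Benjamini-Hochberg adjustment over the 5. The activator to repressor ratio Gli1/Gli3 went from -2.16 ± 0.216 to -3.42 ± 0.310 (log2 ratio of TPM, SD, n = 4), a difference of -1.26. Gli2/Gli3 went from -1.53 ± 0.299 to -2.76 ± 0.265, a difference of -1.22. With estimated counts in place of TPM the differences were -1.46 for Gli1/Gli3 and -1.13 for Gli2/Gli3, and whether the 2 falls differ was not tested.
The receptor to transducer ratio Ptch1/Smo rose from -1.04 ± 0.0830 to -0.44 ± 0.0231, a difference of 0.59. Its Ikzf1 libraries, from -0.46 to -0.41, were the closest together of any ratio. The ratio of the co-receptors, Boc/Cdon, went from -2.55 ± 0.0788 to -4.48 ± 0.348, a difference of -1.93 and the largest of the 5. Hhip/Ptch1, a ratio of 2 target genes, was -3.10 ± 0.103 and -3.20 ± 0.176, overlapping between groups (exact two-sided permutation p = 0.257). A within-library ratio shows only that the 2 genes changed unequally.

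**Figure D4:**
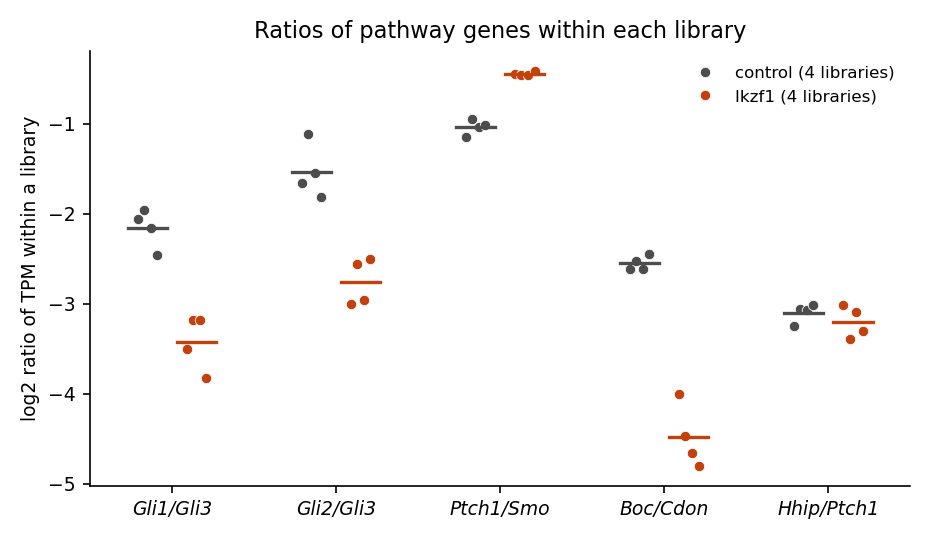
Log2 ratio of TPM of 2 pathway genes within each of the 4 control (grey) and 4 Ikzf1 (orange) libraries, with bars at the group means. Groups are apart for Gli1/Gli3, Gli2/Gli3, Ptch1/Smo and Boc/Cdon and overlap for Hhip/Ptch1.

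Transcript use within a gene was compared for the 4 genes with at least 2 transcripts at 10% or more of the gene's TPM. Only the share of the main transcript was tested. For Cdon, ENSMUST00000042842.5 held 61.4 ± 2.45% of the gene's TPM in the controls and 70.6 ± 4.98% with Ikzf1, with no overlap (exact two-sided permutation p = 0.0286, adjusted over the 4 genes 0.114). Main transcript shares were 82.8 ± 5.26% and 72.5 ± 12.4% for Gli1, 79.3 ± 4.15% and 82.7 ± 3.95% for Ptch1, and 78.3 ± 3.26% and 70.4 ± 9.30% for Sufu. None of the 4 passed the adjusted threshold. A single gene at the smallest possible p of 0.0286 could not pass it, as Cdon shows, so a shift is not excluded. At the depth of Gli1 in the Ikzf1 libraries its shares spread from 62.0 to 87.2%, so a moderate shift was not detectable there.

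Genes whose pattern over the 8 libraries was most like that of Gli1 (Pearson r of log2 CPM, a description driven mostly by the difference between the groups) were Wnt10b, Arc, Fosl2, Dnph1 and Kcna5, with r from 0.994 to 0.998. Wnt10b, a Wnt ligand, went from 4.98 to 1.38 CPM, and Arc, an immediate early gene of neurons, from 45.8 to 19.5 CPM. Those most like Ptch1 were Dedd2, Nat8l, Ccnj, Spag5 and Ube2o, with r from 0.992 to 0.995. Such likeness was common: 1121 genes had an r above 0.95 with Gli1 and 682 with Ptch1.

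The cells are labelled retinal progenitor cells, and progenitor markers were well expressed, with a summed level of 1649 to 1741 CPM over 10 genes in the controls and 1221 to 1264 CPM with Ikzf1. Of these 10 markers, 1 rose, 6 fell and 3 were not called, where 29.3% of all genes tested rose and 29.8% fell. Nes fell from 504.3 to 153.1 CPM and Sox2 from 161.3 to 113.4 CPM, while Pax6 rose from 358.7 to 446.8 CPM. The markers named here were chosen after their values were seen. The summed level of the progenitor list thus fell beside Gli1, Gli2 and Boc, with most of that fall in Nes. Not every marker in the list fell. Markers of other retinal cells were present too: 7 photoreceptor precursor genes summed to 783.8 to 906.4 and then 453.5 to 517.7 CPM (6 lower), and 12 ganglion cell genes to 661.0 to 678.3 and then 347.1 to 381.1 CPM (4 higher and 6 lower of 10 tested). Much of the ganglion cell sum was Nefm (227.5 and 94.7 CPM) and Nefl (118.0 and 18.9 CPM), both lower. The 4 that rose were Sncg (2.66 and 21.5 CPM), Pou4f1 (4.44 and 18.4), Rbpms (9.39 and 23.7) and Isl1 (9.58 and 12.6). The groups of Isl1 overlapped. Amacrine and horizontal cell genes summed to 221.1 to 277.1 and 232.3 to 260.1 CPM (0 higher and 3 lower of 7 tested).
Endothelial and mural markers summed to 405.6 to 476.0 and 207.8 to 248.2 CPM, nearly all of it Kdr (438.7 and 216.5 CPM). Of 5 tested, 0 were higher and 2 were lower, Kdr and Tek (0.792 and 0.348 CPM). Pecam1 was at 3.06 and 2.91 CPM and Pdgfrb at 0.566 and 0.819 CPM, neither of them called. Cdh5 was at 0.141 CPM in the controls and 0 with Ikzf1. Astrocyte markers summed to 5.96 to 7.34 CPM in the controls and 5.37 to 6.30 CPM with Ikzf1, where Aqp4 was at 0. Microglial markers summed to 1.95 to 3.64 and 1.08 to 2.33 CPM, and those of red blood cells to 0.209 to 0.584 and 0 to 0.497 CPM. Pigment epithelium markers summed to 10.5 to 11.2 and 5.01 to 6.96 CPM. All 4 of these lists were low beside those of retinal cells. The part played by the shifts in progenitor, photoreceptor and ganglion cell genes in the falls of Gli1, Gli2 and Boc was not tested. In bulk RNA, fewer cells of a type and less RNA per cell cannot be told apart.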

How the data were processed

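RNA-seq of 4 control and 4 Ikzf1 libraries was used; groups and replicate numbers come from the sample titles. The members and the gene lists were chosen with earlier results of these data known. The deposited files hold estimated counts of read pairs per transcript and TPM, both output of Salmon as run by the authors, per the submitters' processing notes. The authors' deposited comparison table holds, per the file headers, a mean signal over all libraries (the normalised count), a log2 fold change with its error, a Wald score and p-values, made with DESeq2 per the submitters' processing notes. Tool versions, annotation and strand use are not given in the sources used here.

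The transcript files name no genes. A gene was given the run of up to 60 neighbouring transcripts whose counts returned its deposited mean to within 5e-09 of its size, with no use of fold changes. It joined 16710 of 16815 genes (99.4%) of mean 5 or more, and 0.416% when the means were moved slightly. The joined genes held 99.1 to 99.3% of the read pairs.

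Estimated counts were summed per gene, rounded and fitted with edgeR 4.0.16 (low-count filter, TMM, quasi-likelihood test, no covariate). Alternatives used DESeq2 1.42.0, limma 3.58.1 on log2(TPM + 1) and log2(TPM + 0.1), a length offset, a replicate block and leaving out each library. Exact permutation tests were two-sided. The edgeR and DESeq2 fits and the joining of transcripts to genes were tried on simulated data, and the limma fit was not. Replicates differed by more than sampling noise (chi-square per degree of freedom 4.25 to 10.7). The labels call the replicates biological.

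Text names all 9 members, a fixed set of other pathway genes, the 3 called genes of largest change per list at a mean of 1 TPM or more, and the 5 genes most like Gli1 and Ptch1, except some results that are not reported here. Annotation positions are GRCm38. CUT&RUN peaks were not used here, since their lists are on mm9 and no gene coordinates of that build were at hand.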

Additional observations from a re-analysis of the deposited data

Results flagged for a closer look

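In 3 of the 18 groups of 4 libraries examined (9 genes in each of 2 conditions), 1 library stood far from the other 3. Chance alone marks about 1 in 20 such groups. Smo in Ikzf1 replicate 4 was at 80.4 CPM and the other 3 at 74.3 to 74.4 CPM, a gap of 0.979 of the whole range. Hhip in Ikzf1 replicate 3 was at 15.2 CPM against 12.8 to 13.1 CPM, a gap of 0.880 of the range. Boc in Ikzf1 replicate 1 was at 3.92 CPM against 2.70 to 2.82 CPM, a gap of 0.901. Without its distant library the log2 fold change was -0.24 for Smo and -1.91 for Boc, both still called lower by edgeR, and 0.11 for Hhip, which was not called with or without it.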

How the results depend on the processing

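Of 677 fold changes recomputed for 40 named genes, 637 kept direction and side of the threshold and 17 changed sign. Of those that kept their sign, 20 lost a call and 3 gained one. Among the 17, Gli3 also gained a call and Cdon lost one on TPM, with either added value. On TPM the counts were 1860 and 1865 genes higher (added 1 and 0.1) and 6983 lower with either, and 0 of the 9 members higher. On rescaled TPM, chosen after seeing the data, 14 other pathway genes were lower. Members called higher ranged from 1 to 2 when libraries were left out.

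Signs changed only for small values. With the length offset Gli3 was -0.017, Sufu 0.081 and Mycn 0.0083. On TPM with added 1 and 0.1, Gli3 was -0.23 and -0.24, Cdon -0.073 and -0.075, and Ihh -0.045 and -0.13. On rescaled TPM Sufu was 0.13 and Mycn 0.066. Leaving out libraries gave -0.039 to 0.055 for Gli3 and -0.12 to 0.24 for Ihh. Among genes named for likeness to Ptch1, Nat8l, Spag5 and Ube2o lost their calls on TPM. On TPM the Ikzf1 transcripts count in the total, which lowers every other gene; the cause of the other changes was not tested.

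No shared effect of the replicate number was seen, as same-numbered deviations correlated at -0.01, -0.07, -0.03 and -0.06. Such correlations cannot tell whether same-numbered samples were prepared together. With the replicate block 4386 genes were higher and 4493 lower. The 4 ratios under the block kept -1.26 (Gli1/Gli3), -1.22 (Gli2/Gli3), 0.59 (Ptch1/Smo) and -1.93 (Boc/Cdon), with adjusted p = 0.156 by exact sign flips, which cannot go below 0.125 for 4 pairs. Depth limits Shh, Ihh and transcript shares of Gli1.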
